A study of Mus musculus with 12 samples.

Results

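The genes described here encode the subunits of Polycomb repressive complex 2 (PRC2) in the retinas of newborn (P0) mice with and without a conditional deletion of Ezh2. Members were taken by name: Ezh2, Ezh1, Eed, Suz12, Rbbp4, Rbbp7, Jarid2, Aebp2, Mtf2 and Phf19, which are 10 of the 38720 genes in each deposited table. All 10 had reads in every library, from 55 to 2624 reads in a library, and all 10 passed the filter on low values in both cell fractions. In non-RGCs, 1 member, Mtf2, was higher in mKO than in WT mice and none was lower, where 4.18% of all genes tested were higher and 6.43% lower. In RGCs, Mtf2 was again higher, and Rbbp4 and Rbbp7 were lower, where 16.3% of all genes were higher and 21.2% lower.

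PRC2 adds methyl groups to lysine 27 of histone H3 (H3K27), a mark of genes that are held silent. Its catalytic subunit is either Ezh2, which is abundant in dividing cells, or Ezh1, which is retained in many cells that no longer divide. Ezh2 or Ezh1 works only in a core with Eed, which binds the finished mark, with Suz12, the scaffold, and with a histone-binding protein, Rbbp4 or Rbbp7. Accessory subunits bind the core in alternative sets: Jarid2 and Aebp2 form one version, and a Polycomb-like protein, such as Mtf2 or Phf19, marks the other and helps bring PRC2 to CpG-rich DNA. In the developing retina, PRC2 acts in progenitors and in the neurons they produce.

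The mKO mice carried Cre recombinase in the Math5 locus and Ezh2 alleles with loxP sites around exons 16 to 19, and the control mice are labelled wild type (WT), while the study's methods name littermates with Ezh2 flox/flox alleles as the usual controls. All mice were C57/BL6 by their labels and were taken at P0. Retinal cells were dissociated with papain, and retinal ganglion cells (RGCs), the neurons whose axons form the optic nerve, were pulled out with magnetic beads against Thy-1 (CD90); the remaining cells are the non-RGCs. Each of the 4 groups, mKO and WT in RGCs and in non-RGCs, had 3 libraries from independent RNA extractions, 12 in all. Math5 is active in cells that are leaving the cell cycle and give rise to RGCs, and the study describes Cre activity in only a share of RGCs, so most non-RGCs need not have been recombined. Whether retinas of several pups were pooled is not given in the sources used here, so p-values measure the spread between these extractions. In such bulk samples, fewer cells of a type and less RNA per cell cannot be told apart.

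The reads counted on genes ranged from 7139633 to 12828281 in the mKO non-RGC libraries, from 11100177 to 12157900 in WT non-RGCs, from 12391602 to 13014004 in mKO RGCs and from 10600964 to 12328717 in WT RGCs. Libraries are lettered A, B and C within a group from the deepest to the shallowest. The 12 RGC markers summed to between 2059 and 2766 RPM (reads per 1000000 reads on genes) in RGC libraries. In non-RGC libraries they summed to between 512.5 and 814.2, so the RGC fraction was enriched. In WT non-RGCs, Tubb3 (mean 183.4 RPM) and Stmn2 (100.9) were the largest parts of that sum, and Pou4f2 (4.60) and Thy1 (0.47) were small. How far these values come from RGCs left in that fraction was not tested. In non-RGCs, 8 of 12 RGC markers were higher in mKO, where 4.18% of all genes were higher. Thy1, the antigen of the beads, rose the most of the 12 (80.0 against 5.28 normalised reads). Isl1, Gap43 and Stmn2 were not called. Tubb3 was not called either and lay lower in mKO (log2 change -0.53, limma adjusted p = 0.0792). In mKO RGCs, 10 of 12 were lower, where 21.2% of all genes were lower. With the trend of each library with GC content removed, the RGC markers higher in non-RGCs and lower in RGCs numbered 5 and 10. Then 165 of 15326 genes were higher in non-RGCs and 1769 of 16085 lower in RGCs. With the trend in reads per base removed as well, the marker counts were 5 and 2, and those of all genes 105 and 773. Globin and erythroid genes were higher in mKO in both fractions (5 of 5, summing to 561.1 to 865.6 against 128.1 to 211.9 normalised reads in non-RGCs and 282.1 to 342.9 against 118.3 to 136.5 in RGCs). Pigment cell genes were higher in mKO for 4 of 4 tested in non-RGCs (1552 to 1779 against 345.1 to 643.5) and for 3 of 4 in RGCs (418.8 to 668.4 against 189.5 to 319.8). Rpe65, which defines retinal pigment epithelium, was under the filter. Its mean was 1.84 normalised reads in mKO non-RGCs, 0.93 in mKO RGCs and 0 in WT of both fractions. One library stood apart: WT RGC library C held progenitor and cycling-cell markers at 2031 RPM, against 1223 and 1272 in the other WT RGC libraries and 1251 to 1364 in mKO RGCs. It was also the highest RGC library in photoreceptor markers (977.4 RPM, the others 583.5 to 675.0). The same held for amacrine and horizontal cell markers (658.6 RPM, the others 537.8 to 579.4). The part of these shifts in the values below was not tested, and each member's log2 change in RGCs is given with and without WT RGC library C. Leaving out that library gave 9242 of 16125 genes an unadjusted limma p under 0.05, against 7658 of 16085 with it.

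Ezh2 is the targeted gene. Its deleted exons are shown because they decide what a count of reads over the whole gene can see. Ezh2 lies on chromosome 6 (GRCm38, minus strand, 47530139 to 47595341), and exons 16 to 19 of its 20-exon coding transcript span chr6:47531741-47533837. They are coding exons of the SET domain, the part that transfers the methyl group.
Ezh2 exon 16: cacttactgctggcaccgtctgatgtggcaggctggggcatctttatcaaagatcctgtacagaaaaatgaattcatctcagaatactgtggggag
Ezh2 exon 17: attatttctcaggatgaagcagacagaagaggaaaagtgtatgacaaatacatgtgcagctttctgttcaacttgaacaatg
Ezh2 exon 18: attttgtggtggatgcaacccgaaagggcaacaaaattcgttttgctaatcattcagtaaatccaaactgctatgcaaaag
Ezh2 exon 19: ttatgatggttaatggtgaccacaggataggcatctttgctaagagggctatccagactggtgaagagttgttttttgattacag
Together they hold 344 of the 2787 bases of that transcript (12.3%) and 5.2% of the 6678 bases of all annotated Ezh2 exons, and 344 leaves a remainder of 2 after division by 3, so their removal shifts the reading frame. A gene count sums reads over all exons, most of which remain after deletion, and therefore does not check the deletion or the labels.

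In non-RGCs, Ezh2 had 1889, 2107 and 2509 normalised reads in mKO libraries A, B and C and 2115, 2149 and 1683 in the WT libraries. The groups overlapped, with WT library C below and mKO library C above all the others. The fitted log2 change (mKO over WT, on log2(normalised reads + 1)) was 0.13 ± 0.15 (SE, n = 3 against 3, limma adjusted p = 0.584), with a 95% interval from -0.20 to 0.45. In RGCs, Ezh2 had 1354, 1476 and 1443 normalised reads in mKO and 1190, 1206 and 1678 in WT. The WT library with 1678 was library C, the one rich in progenitor, photoreceptor, and amacrine and horizontal cell markers. The log2 change in RGCs was 0.09 ± 0.13 (limma adjusted p = 0.637, 95% interval -0.23 to 0.40), and without WT RGC library C it was 0.25 (limma adjusted p = 0.00419), higher in mKO. With all libraries and the GC trend removed, as described below, it was -0.14 (limma adjusted p = 0.526). A fall of Ezh2 transcript was thus not detected in either mKO fraction.

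Ezh1, the alternative catalytic subunit, had 635.7, 641.6 and 532.4 normalised reads in mKO non-RGCs and 721.8, 567.1 and 617.3 in WT non-RGCs. The log2 change was -0.07 ± 0.15 (limma adjusted p = 0.777, 95% interval -0.41 to 0.26). In RGCs, Ezh1 had 932.7, 966.3 and 963.6 in mKO and 1001, 948.8 and 800.6 in WT, a log2 change of 0.06 ± 0.09 (limma adjusted p = 0.603, 95% interval -0.15 to 0.27), and of -0.031 without WT library C, the lowest (limma adjusted p = 0.611). The groups overlapped in both fractions.

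The balance between both enzymes differed with the cell fraction more than with genotype. Within a library, where no scaling between libraries enters, Ezh2 had 3.26, 4.22 and 3.04 times the reads per kilobase of exon of Ezh1 in WT non-RGCs and 3.31, 3.66 and 5.25 times in mKO non-RGCs. In RGCs the ratio was 1.32, 1.42 and 2.33 in WT and 1.62, 1.70 and 1.67 in mKO. Every non-RGC library was above every RGC library, the genotypes overlapped within each fraction, and the highest RGC ratio was that of WT library C. These ratios were chosen after their values were seen and were not tested.

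**Figure D1:**
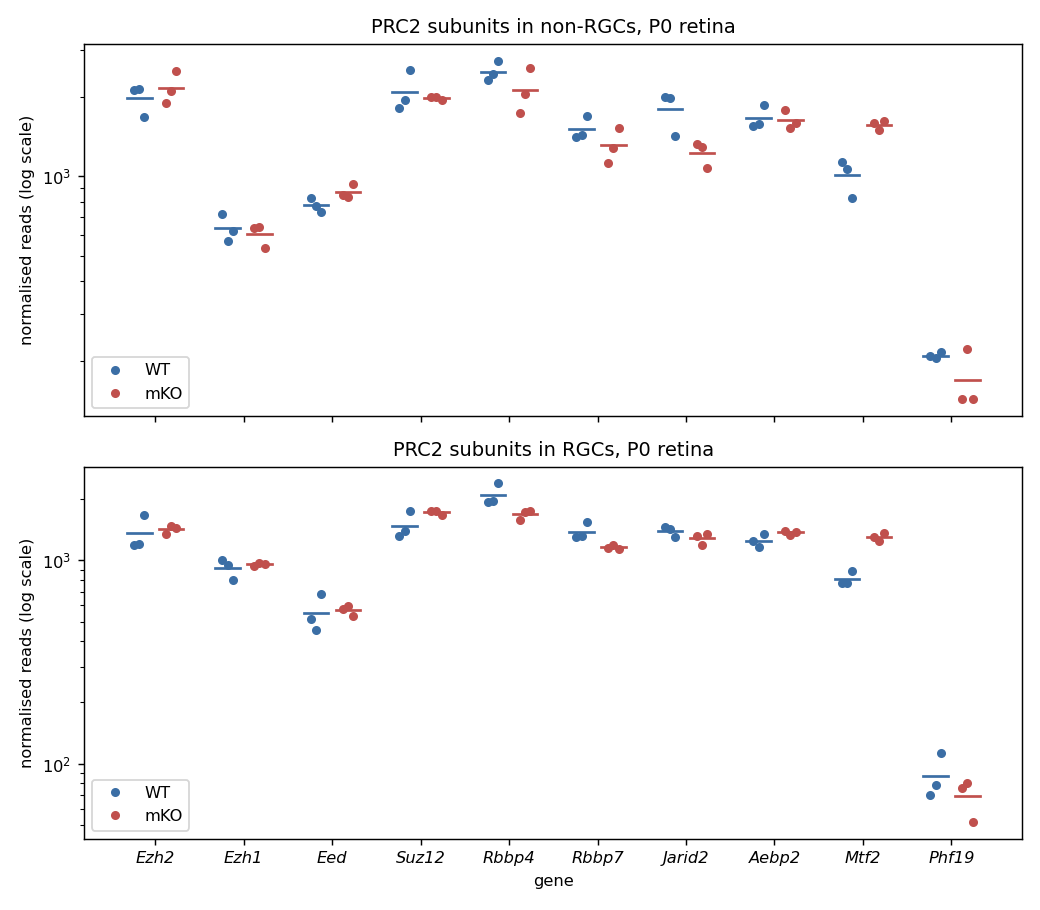
Normalised reads (log scale) of the 10 PRC2 genes in non-RGCs (top) and RGCs (bottom); each point is a library, bars are group means, WT blue and mKO red. Mtf2 is the only gene with all 3 mKO libraries above all 3 WT libraries in both panels, and the 2 panels were normalised separately.

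Among the other core subunits, Eed had 846.9, 830.6 and 932.0 normalised reads in mKO non-RGCs and 823.8, 769.3 and 734.1 in WT non-RGCs. Every mKO library was above every WT library, by as little as 830.6 against 823.8, and the log2 change was 0.16 ± 0.13 (limma adjusted p = 0.401, 95% interval -0.12 to 0.44). In RGCs, Eed had 578.5, 595.6 and 533.6 in mKO and 512.9, 456.0 and 682.7 in WT (log2 change 0.07 ± 0.15, limma adjusted p = 0.741). WT library C was again the high one, and without it the log2 change was 0.23 (limma adjusted p = 0.0358). With all libraries and the GC trend removed, the log2 change of Eed in RGCs was -0.13 (limma adjusted p = 0.585).

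Suz12 had 2004, 1989 and 1940 normalised reads in mKO non-RGCs, a narrow range, and 1811, 1946 and 2522 in WT non-RGCs, where library C was far above the others. The log2 change was -0.07 ± 0.14 (limma adjusted p = 0.775, 95% interval -0.37 to 0.24). In RGCs, Suz12 had 1744, 1748 and 1666 in mKO and 1322, 1387 and 1740 in WT, a log2 change of 0.22 ± 0.10 (limma adjusted p = 0.132). The groups overlapped only through WT library C, without which the log2 change was 0.34 (limma adjusted p = 0.000573). With all libraries and the GC trend removed, the log2 change of Suz12 in RGCs was -0.16 (limma adjusted p = 0.337).

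Rbbp4 and Rbbp7 are close relatives that also serve in other histone complexes. Rbbp4 had 1738, 2054 and 2572 normalised reads in mKO non-RGCs and 2309, 2434 and 2736 in WT non-RGCs. The mKO libraries spread widely and overlapped the WT range, and the log2 change was -0.25 ± 0.15 (limma adjusted p = 0.299). In RGCs, Rbbp4 had 1585, 1726 and 1755 in mKO and 1945, 1965 and 2388 in WT, so that every mKO library was below every WT library. It fell in mKO RGCs by 0.31 on the log2 scale (SE 0.09, limma adjusted p = 0.0353), to 0.808 of the WT level. WT library C was the highest, and without it the log2 change was -0.21 (limma adjusted p = 0.0115).

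Rbbp7 had 1120, 1275 and 1529 normalised reads in mKO non-RGCs and 1404, 1436 and 1693 in WT non-RGCs (log2 change -0.21 ± 0.15, limma adjusted p = 0.350). In RGCs it had 1153, 1186 and 1138 in mKO and 1298, 1311 and 1540 in WT, again without overlap. It fell in mKO RGCs by 0.25 on the log2 scale (SE 0.08, limma adjusted p = 0.0397), and without WT library C the log2 change was -0.17 (limma adjusted p = 0.0110). Both calls in RGCs were lost without mKO library A, B or C (limma adjusted p between 0.0756 and 0.124), where the estimates stayed between -0.34 and -0.26 for Rbbp4 and between -0.27 and -0.24 for Rbbp7. That of Rbbp7 was also lost without WT library B (-0.29, limma adjusted p = 0.0504) and without a filter on low values (limma adjusted p = 0.0578). Both were lost under scaling by total reads (0.156 for Rbbp4 and 0.261 for Rbbp7) or by the upper quartile (0.342 and 0.545). Within each library the ratio of Rbbp4 to Rbbp7 reads per kilobase stayed between 0.458 and 0.564 over the 4 groups. Of the Rbbp4 exon bases, 8.9% overlap Sync and 9.1% Gm26722 on the opposite strand, 6.0% of those of Rbbp7 overlap Txlng, and 6.97% of Rbbp7 50-base stretches also occur in its pseudogene Gm6382, so these counts may be uncertain to that extent, as the strand setting of the counting is not known.

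The other proteins that use Rbbp4 or Rbbp7, in CAF-1, Hat1, NuRD and Sin3 complexes, were counted from a list of 18 genes, all tested. In non-RGCs, 0 were higher and 4 lower in mKO by limma (1 and 7 at an unadjusted p under 0.05), where 6.43% of all genes were lower, namely the NuRD genes Gatad2a (log2 change -0.51, limma adjusted p = 0.0193), Chd4 (-0.53, 0.0276), Gatad2b (-0.91, 0.0305) and Mta1 (-0.54, 0.0308). Their median log2 change was -0.20 against -0.03 over all genes tested. With the GC trend removed, as described below, or with both trends removed, 1 of these calls remained, that of Gatad2b. Of the 15326 genes tested, 172 and 139 were then lower. In RGCs, 0 were higher and 8 lower (1 and 10 at an unadjusted p under 0.05), where 21.2% of all genes were lower, led by Mta1, Sin3b, Mbd3, Gatad2a, Mbd2 and Chd4, which fell by 0.35 to 0.66 on the log2 scale, and the median was -0.24 against -0.00. With the GC trend removed, 5 were called lower, against 1769 of the 16085 genes tested. These were Mta1, Sin3b and Mbd2 of the former, and Hdac2 and Gatad2b, which had not been called before. With both trends removed, Hdac2 (-0.31, limma adjusted p = 0.0269) and Gatad2b (-0.49, limma adjusted p = 0.0236) were called, and none of the former. Of the 16085 genes tested, 773 were then lower.

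Jarid2, which targets PRC2 and stimulates its enzyme, was the member with the largest difference below WT in non-RGCs. It had 1322, 1295 and 1070 normalised reads in mKO non-RGCs and 1998, 1980 and 1422 in WT non-RGCs, so that every mKO library was below every WT library. The log2 change was -0.54 ± 0.16, or 0.688 of the WT level (limma adjusted p = 0.0589), short of the threshold of 0.05. WT library C was the lowest of its group, and without it the log2 change was -0.70 (limma adjusted p = 0.0224). Without any other single library, Jarid2 was not called (log2 change -0.59 to -0.44, limma adjusted p from 0.0684 to 0.189). In RGCs, Jarid2 had 1320, 1189 and 1341 in mKO and 1457, 1418 and 1306 in WT, with overlap, and the log2 change was -0.12 ± 0.07 (limma adjusted p = 0.228), or -0.17 without WT library C (limma adjusted p = 0.0502).

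Aebp2, a zinc finger partner of Jarid2 in PRC2, had 1775, 1519 and 1594 normalised reads in mKO non-RGCs and 1546, 1575 and 1861 in WT non-RGCs. The log2 change was -0.03 ± 0.12 (limma adjusted p = 0.909, 95% interval -0.30 to 0.25). In RGCs it had 1396, 1331 and 1385 in mKO and 1243, 1161 and 1342 in WT, a log2 change of 0.14 ± 0.07 (limma adjusted p = 0.150). The overlap in RGCs came from WT library C, without which the log2 change was 0.19 (limma adjusted p = 0.0131). With all libraries and the GC trend removed, the log2 change of Aebp2 in RGCs was -0.041 (limma adjusted p = 0.726).

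Mtf2, the Polycomb-like protein also called PCL2, was the member that rose. In non-RGCs it had 1593, 1492 and 1614 normalised reads in mKO and 1133, 1066 and 828.9 in WT. The ranges lay well apart, and the log2 change was 0.65 ± 0.14, or 1.56-fold (limma adjusted p = 0.0240). In RGCs it had 1297, 1246 and 1361 in mKO and 771.3, 771.9 and 889.3 in WT, a log2 change of 0.68 ± 0.08, or 1.61-fold (limma adjusted p = 0.000973), and of 0.75 without WT library C (limma adjusted p = 5.36e-05). The call in non-RGCs was lost without mKO library B (log2 change 0.68, limma adjusted p = 0.1001) and without WT library B (0.69, limma adjusted p = 0.0665), where the estimate itself stayed.

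Mtf2 lies on chromosome 5 (GRCm38, plus strand, 108065674 to 108109004). Its 3′ end overlaps Tmed5, a gene for a protein of the secretory pathway on the opposite strand, over 395 bases or 6.9% of its exons. Tmed5 was higher in mKO as well, by 0.91 on the log2 scale in non-RGCs (limma adjusted p = 0.0109) and by 1.03 in RGCs (limma adjusted p = 0.00255). Whether strand was used in counting is not given in the sources used here, and without it reads in the shared part cannot be told apart. The Mtf2 exons also have the lowest GC content of the members, 39.5%, and genes of low GC content lay higher in mKO across each table, as given below.

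Phf19, the other Polycomb-like protein among the members, was the scarcest member. It had 142.6, 221.5 and 142.6 normalised reads in mKO non-RGCs and 207.5, 204.2 and 214.8 in WT non-RGCs, so that the mKO libraries enclosed the WT range. The log2 change was -0.34 ± 0.22 (limma adjusted p = 0.321, 95% interval -0.82 to 0.15). In RGCs it had 75.9, 80.2 and 51.8 in mKO and 69.9, 78.2 and 113.2 in WT (log2 change -0.32 ± 0.26, limma adjusted p = 0.362, 95% interval -0.93 to 0.29), and without WT library C, the highest, it was -0.12 (limma adjusted p = 0.692). Its intervals were the widest of the members in both fractions.

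The ratio of Mtf2 to Jarid2 differed between genotypes. Within a library, Mtf2 had 0.967, 0.918 and 0.994 times the reads per kilobase of exon of Jarid2 in WT non-RGCs and 2.06, 1.97 and 2.57 times in mKO non-RGCs. In RGCs the ratio was 0.903, 0.928 and 1.16 in WT and 1.68, 1.79 and 1.73 in mKO. All 6 mKO libraries were above all 6 WT libraries. The pair was chosen after its values were seen, the ratio was not tested, and the exons of Jarid2 have a GC content of 50.1%, so the trend with GC content enters it.

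**Figure D2:**
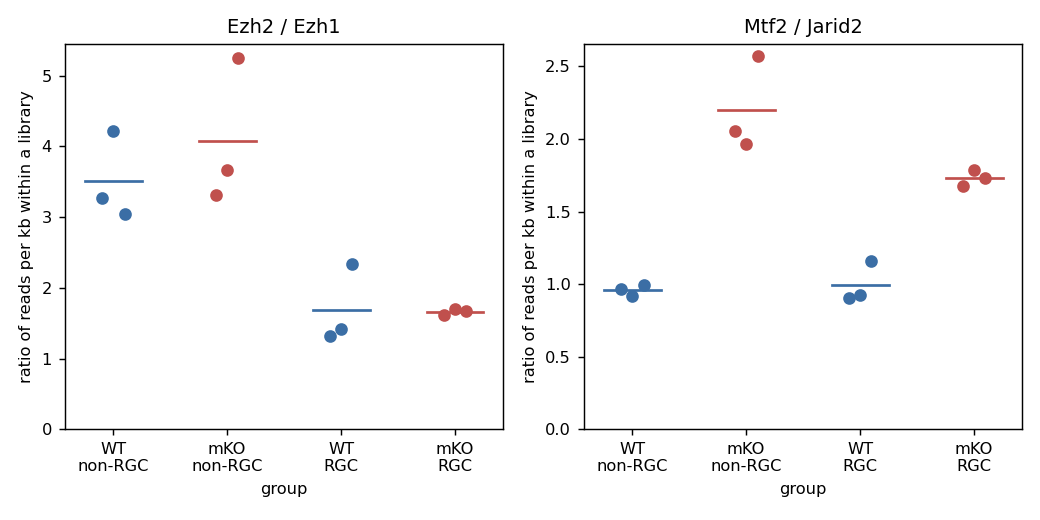
Ratio of reads per kilobase of exon of Ezh2 to Ezh1 (left) and of Mtf2 to Jarid2 (right) within each library; points are libraries, bars are group means. The left ratio separates non-RGCs (3.04 to 5.25) from RGCs (1.32 to 2.33), and the right ratio separates mKO (1.68 to 2.57) from WT (0.903 to 1.16).

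Over all 10 members in non-RGCs, 1 was called higher in mKO, where 4.18% of the 15326 genes tested were called higher, and 0 were called lower, where the background was 6.43%. At an unadjusted p under 0.05, limma gave 2 members, Mtf2 and Jarid2. Every mKO library was above every WT library for 2 members (Mtf2 and Eed; 17.5% of all genes) and below for 1 (Jarid2; 19.2%). The median log2 change was -0.07, against -0.03 over all genes. In RGCs, 1 member was called higher and 2 lower, where 16.3% and 21.2% of the 16085 genes tested were called higher and lower, and the libraries did not overlap for 1 member above (24.7% of all genes) and 2 below (28.2%). The median was 0.07 against -0.00. Counts of 1 or 2 in 10 do not set the members apart from these backgrounds.

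**Figure D3:**
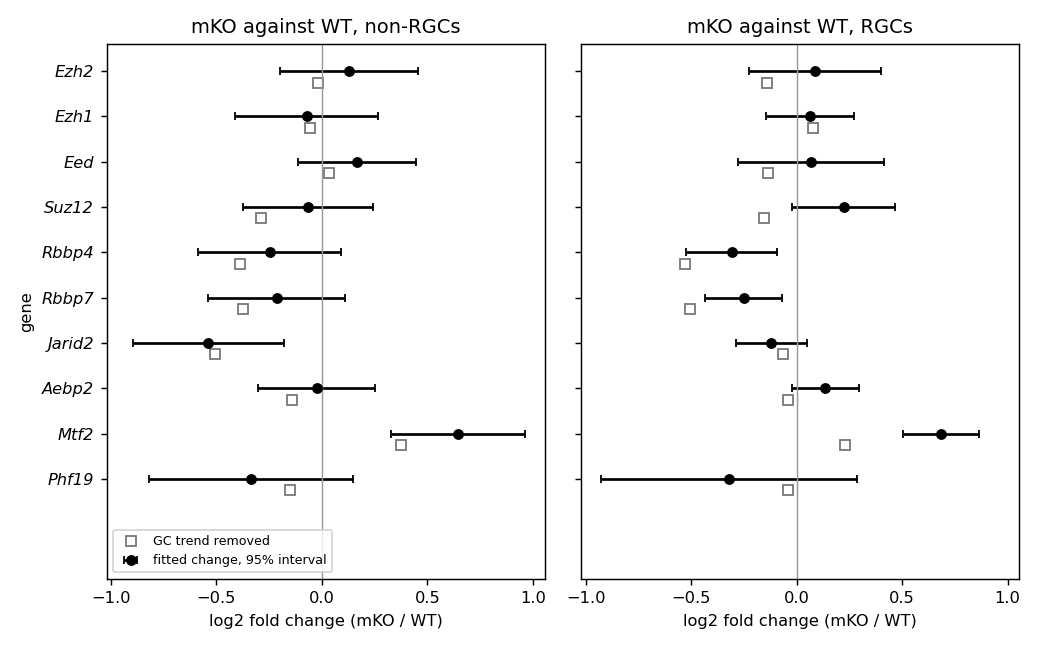
Fitted log2 fold change (mKO over WT) of each PRC2 gene in non-RGCs (left) and RGCs (right), with 95% intervals, and the value with the GC trend of each library removed (open squares). Mtf2 lies at 0.65 and 0.68, and at 0.38 and 0.23 with the trend removed.

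Changes between genotypes ran with the GC content of genes in these tables. Spearman's rho between the log2 change and the GC content of the exons was -0.493 in non-RGCs and -0.719 in RGCs. It was taken across genes with known GC content and a mean of at least 50 normalised reads, which are not independent replicates. Over the 10 members, whose GC content ran from 39.5% (Mtf2) to 55.0% (Phf19), rho was -0.60 in both fractions, as a description of genes that share these libraries. With each library's GC trend removed, the log2 change of Mtf2 was 0.38 in non-RGCs (limma adjusted p = 0.161) and 0.23 in RGCs (limma adjusted p = 0.0798). With trends in both GC content and reads per base removed it was 0.49 (limma adjusted p = 0.1003) and 0.33 (limma adjusted p = 0.0392). Rbbp4 in RGCs lay further below WT with the GC trend removed (-0.53, limma adjusted p = 0.0131), as did Rbbp7 (-0.50, limma adjusted p = 0.00764), and Rbbp7 lost its call with both trends removed (-0.25, limma adjusted p = 0.0942). Jarid2 in non-RGCs stayed at -0.50 with the GC trend removed (limma adjusted p = 0.109).

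**Figure D4:**
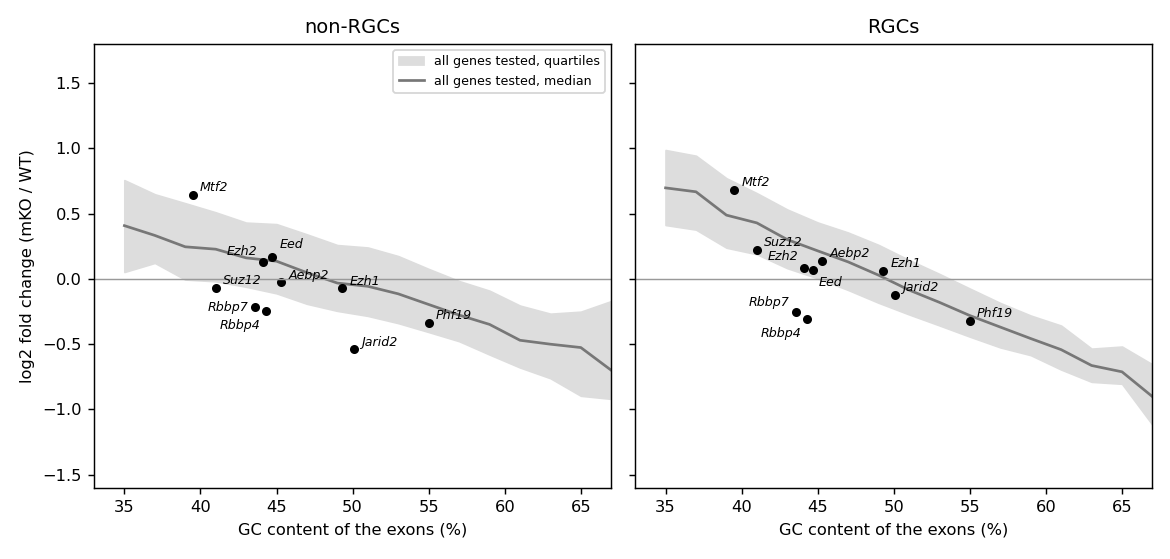
Log2 fold change (mKO over WT) against the GC content of the exons for the 10 PRC2 genes (points), with the median (line) and quartiles (band) of all genes tested in bins of GC content that hold at least 20 genes. The median falls with GC content in both fractions. Rbbp4 and Rbbp7 lie below the band in both, and Jarid2 and Suz12 lie below it in non-RGCs only. Mtf2 lies above the band in non-RGCs and within it in RGCs.

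The test of whether the change differed between fractions used all 12 libraries. None of the 10 members was called, where 0.107% of the 14894 genes tested were called, and limma gave 1 member, Jarid2, at an unadjusted p under 0.05. Its log2 change was 0.42 lower in non-RGCs than in RGCs (95% interval of the difference -0.82 to -0.02, limma adjusted p = 0.487). For Mtf2 the difference was -0.04, with an interval from -0.39 to 0.31, and for Ezh2 it was 0.04, from -0.41 to 0.49. The calls of Rbbp4 and Rbbp7 in RGCs alone were not matched by a difference between fractions, which was 0.06 for Rbbp4 (95% interval -0.35 to 0.47) and 0.04 for Rbbp7 (-0.33 to 0.40).

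The levels of the members were set side by side per kilobase of exon, as RPM per kilobase. In WT non-RGCs the order was Rbbp7 (46.3 ± 3.47, SD, n = 3), Suz12 (37.7 ± 5.65), Ezh2 (26.6 ± 4.16), Rbbp4 (25.4 ± 1.499), Eed (18.1 ± 1.53), Jarid2 (16.6 ± 3.43), Mtf2 (15.9 ± 2.92), Aebp2 (15.03 ± 1.13), Ezh1 (7.63 ± 1.06) and Phf19 (3.70 ± 0.048). The libraries of neighbours in this order overlapped for Rbbp7 and Suz12, for Ezh2 and Rbbp4, and from Eed through Aebp2. Suz12 and Ezh2, Rbbp4 and Eed, Aebp2 and Ezh1, and Ezh1 and Phf19 did not overlap. The length used matters: per kilobase of the longest coding transcript, Ezh2 came first in both non-RGC groups and second in both RGC groups. In mKO non-RGCs the order was alike except that Mtf2 moved from the seventh place to the fourth, at 27.6 ± 0.95, and Jarid2 from the sixth to the eighth, at 12.7 ± 1.57.

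In WT RGCs, Rbbp7 was again first (38.0 ± 4.13) and Phf19 last (1.38 ± 0.38), each apart from its neighbour. Between them came Suz12 (24.0 ± 3.87), Rbbp4 (19.2 ± 2.48), Ezh2 (16.3 ± 3.49), Eed (11.5 ± 2.60), Jarid2 (11.5 ± 0.57), Mtf2 (11.4 ± 1.07), Aebp2 (10.1 ± 0.86) and Ezh1 (9.85 ± 1.06), and each overlapped the next. In mKO RGCs, Mtf2 took the third place at 19.9 ± 0.71, above Ezh2 (18.6 ± 0.72) and Rbbp4 (16.8 ± 0.72). Per kilobase of the longest coding transcript, Mtf2 was only the fifth in mKO RGCs, below both, and the sixth in mKO non-RGCs.

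Most members were more abundant in non-RGCs than in RGCs. In WT, 8 of 10 had every non-RGC library above every RGC library in RPM, where 34.0% of the genes did, and none lay entirely below (24.5% of genes), as Ezh1 and Mtf2 overlapped. The ratio of means was 1.63 for Ezh2, 1.57 for Eed and Suz12, 2.67 for Phf19 and 0.775 for Ezh1, against a median of 1.11 over all genes. In mKO, 8 of 10 lay above (43.0% of genes) and 1, Ezh1, lay below (26.0%), with Jarid2 overlapping. The ratio was 1.76 for Ezh2, 2.82 for Phf19 and 0.731 for Ezh1, against a median of 1.15. The tables were normalised separately, so these ratios are descriptions and were not tested, and progenitor and cycling-cell markers summed to 2131 to 2963 RPM in non-RGCs against 1223 to 2031 in RGCs.

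**Figure D5:**
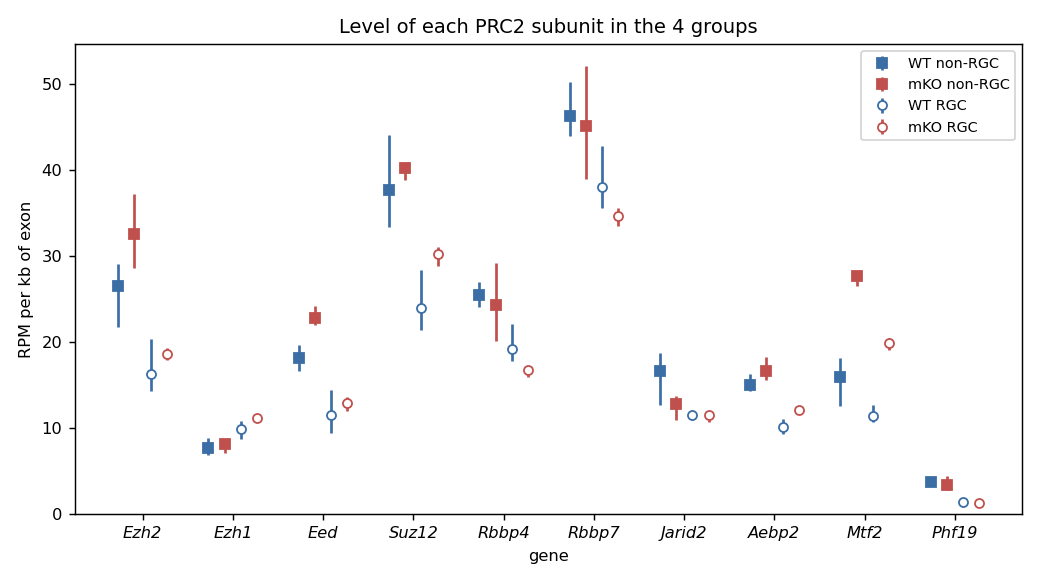
RPM per kilobase of exon of each PRC2 gene in the 4 groups; symbols are means of 3 libraries and lines run from the lowest to the highest library. Ezh1 is the only gene with a higher mean in RGCs than in non-RGCs, and Mtf2 shows the gap between mKO (27.6 and 19.9) and WT (15.9 and 11.4) in non-RGCs and RGCs.

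The genes whose level went most closely with that of Ezh2 over the 12 libraries, among 11747 genes compared, were Brd7 (Pearson r = 0.992), Fubp1 (0.991), 4933434E20Rik (0.990), Smc4 (0.988) and Ccdc163 (0.986) on the log2 scale of RPM. Smc4 is a condensin subunit used in mitosis. Of the members, Eed was nearest, at 0.973 and place 32 among those genes, followed by Aebp2 (0.849), Phf19 (0.828), Suz12 (0.820), Rbbp4 (0.779), Rbbp7 (0.747), Mtf2 (0.742) and Jarid2 (0.450), while Ezh1 stood at -0.72. The libraries fall into fractions that differ in level, and these values describe that difference as well as the spread within it.

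The promoters are shown for Mtf2, the member that rose, and for the members whose window holds letters that E2F factors, which drive genes of the cell cycle, are known to bind. Windows run from 250 bases before to 50 after the annotated start (RefSeq, GRCm38.p6), and all 10 members had at least 1, 14 in all. The letters searched were TTTGGCGC, TTTCGCGC, TTTCCCGC and TTTGCCGC on both strands, and matches are in capitals.
Ezh2 promoter: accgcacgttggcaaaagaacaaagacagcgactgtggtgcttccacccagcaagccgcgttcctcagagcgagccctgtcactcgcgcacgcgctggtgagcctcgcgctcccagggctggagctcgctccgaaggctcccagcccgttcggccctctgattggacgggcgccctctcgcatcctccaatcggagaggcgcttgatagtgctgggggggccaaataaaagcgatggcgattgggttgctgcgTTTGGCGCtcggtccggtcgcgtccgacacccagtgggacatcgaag
Suz12 promoter: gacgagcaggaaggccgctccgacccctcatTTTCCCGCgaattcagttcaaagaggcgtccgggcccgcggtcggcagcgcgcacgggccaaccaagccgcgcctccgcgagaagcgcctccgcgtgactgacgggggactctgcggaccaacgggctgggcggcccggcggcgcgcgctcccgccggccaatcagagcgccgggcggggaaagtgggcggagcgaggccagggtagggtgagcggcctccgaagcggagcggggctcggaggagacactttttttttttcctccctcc
Phf19 promoter: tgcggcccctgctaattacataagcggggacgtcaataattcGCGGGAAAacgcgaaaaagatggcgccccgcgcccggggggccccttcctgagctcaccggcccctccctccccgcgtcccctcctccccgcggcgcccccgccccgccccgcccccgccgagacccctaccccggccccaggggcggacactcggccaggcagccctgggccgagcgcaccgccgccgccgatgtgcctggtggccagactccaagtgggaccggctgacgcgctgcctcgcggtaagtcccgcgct
Mtf2 promoter: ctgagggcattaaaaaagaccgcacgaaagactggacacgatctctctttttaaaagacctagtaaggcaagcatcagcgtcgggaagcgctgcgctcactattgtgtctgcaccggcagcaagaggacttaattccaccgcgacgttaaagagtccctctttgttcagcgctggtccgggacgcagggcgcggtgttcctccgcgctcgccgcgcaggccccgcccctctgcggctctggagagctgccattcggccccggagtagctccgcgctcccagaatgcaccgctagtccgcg
The windows lie at chr6:47594981-47595280 (minus strand) for Ezh2, chr11:79992856-79993155 (plus) for Suz12, chr2:34913927-34914226 (minus) for Phf19 and chr5:108065424-108065723 (plus) for Mtf2. Of the 14 member windows, 3 held a match, those of Ezh2, Suz12 and Phf19, against 2.26% of 32851 windows of all genes. A match says that these letters are present, and no binding was measured here. Each of these 3 genes had a higher RPM in every non-RGC than in every RGC library, as had Eed and Aebp2, which have no match.

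Other partners of PRC2 were read from a list of 7 genes, of which 6 were tested and Ezhip (AU022751), an inhibitor of the complex, was under the filter. In non-RGCs, 0 were higher and 1 was lower by limma, where 6.43% of all genes were lower: Epop (E130012A19Rik), an adaptor of the Polycomb-like version of PRC2, had a mean of 554.1 normalised reads in mKO and 1032 in WT and fell by 0.90 on the log2 scale (limma adjusted p = 0.00860). In RGCs, 2 were higher and 3 lower, where 16.3% and 21.2% of all genes were. Lcor (log2 change 0.77, limma adjusted p = 0.00232) and Lcorl (0.84, limma adjusted p = 0.000644), whose loci encode PALI proteins of PRC2, rose. Epop fell by 0.95 (limma adjusted p = 0.00812), the Polycomb-like Phf1 by 0.62 (limma adjusted p = 0.00133) and Elob (Tceb2) by 0.79 (limma adjusted p = 0.00113), while Eloc (Tceb1) was at 0.03 (limma adjusted p = 0.777). In non-RGCs, Phf1 stood at -0.44 (limma adjusted p = 0.251), Lcor at -0.61 (0.186) and Lcorl at -0.09 (0.775), Elob at -0.36 (0.321) and Eloc at 0.29 (0.244). With the GC trend removed, no call was left in non-RGCs (Epop -0.21, limma adjusted p = 0.328), and those of Lcorl (0.19, limma adjusted p = 0.0489) and Elob (-0.46, limma adjusted p = 0.0143) were left in RGCs, where Eloc was then also called lower (-0.33, limma adjusted p = 0.0159). With both trends removed, only Elob (-0.38, limma adjusted p = 0.0365) was called in RGCs, with Lcorl at 0.17 (limma adjusted p = 0.117).

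Of the enzymes that remove the mark, Kdm6b fell in both fractions. It had 1610 to 2064 normalised reads in mKO and 3164 to 3719 in WT non-RGCs, a fall by 0.90 on the log2 scale (limma adjusted p = 0.00709), and fell by 0.64 in RGCs (limma adjusted p = 0.000657). Kdm6a stood at -0.13 in non-RGCs (limma adjusted p = 0.574) and rose by 0.47 in RGCs (limma adjusted p = 0.00356). Of the 4 PR-DUB genes, whose product removes the ubiquitin mark laid by PRC1, none passed in non-RGCs by limma (1, Bap1, at an unadjusted p under 0.05), while in RGCs Asxl2 rose (0.59, limma adjusted p = 0.00178) and Bap1 fell by 0.38 (limma adjusted p = 0.00227). None of these calls was left with the GC trend or both trends removed. With the GC trend removed, Kdm6b stood at -0.54 in non-RGCs (limma adjusted p = 0.0714) and at -0.18 in RGCs (limma adjusted p = 0.102), Kdm6a at 0.13 in RGCs (limma adjusted p = 0.238), Asxl2 at 0.22 (limma adjusted p = 0.105) and Bap1 at -0.13 (limma adjusted p = 0.122).

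The developmental regulators known as PRC2 targets were a list of 58 genes, with 38 Hox genes of the 4 clusters among them. Most were silent or nearly so: 19 had no read in any non-RGC library, and 11 passed the filter there. In non-RGCs, 0 of these 11 were higher in mKO and 2 were lower by limma, Pax7 (14.2 against 90.5 normalised reads, log2 change -2.30, limma adjusted p = 0.0327) and Tbx3 (1650 against 2393, -0.53, limma adjusted p = 0.0234), where 6.43% of all genes were lower. No target was higher at an unadjusted p under 0.05 in either fraction. In non-RGCs, En2 stood at 1.13 (limma adjusted p = 0.198) and Cdkn2a, a classic PRC2 target, at 0.07 (limma adjusted p = 0.893). Cdkn2a stood at -1.21 in RGCs (5.46 normalised reads in mKO against 14.8 in WT, limma adjusted p = 0.0693), where En2 was under the filter. The 38 Hox genes together had 6 to 12 reads in an mKO non-RGC library and 4 to 10 in a WT one, and 1 to 13 in mKO RGCs and 10 or 11 in WT RGCs. In RGCs, 9 of the 58 passed the filter, 22 had no read, 0 were higher and 3 were lower, where 21.2% of all genes were lower: Six2 (-1.16, limma adjusted p = 0.00487), Pax7 (-1.19, limma adjusted p = 0.0266) and Tbx3 (-0.33, limma adjusted p = 0.0351). With the GC trend removed none of these was called in either fraction, with Pax7 at -2.10 (limma adjusted p = 0.0714) and Tbx3 at -0.46 (limma adjusted p = 0.0628) in non-RGCs. With both trends removed none was called in non-RGCs, while Six2 (-0.89, limma adjusted p = 0.0484) and Pax7 (-1.31, limma adjusted p = 0.0419) were called lower in RGCs. A gene can pass the filter through the group in which it is high, so these counts describe only the genes that passed.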

How the data were processed

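RNA was sequenced from both retinal fractions of newborn mice, and the sample labels put the 12 libraries into 4 groups of 3. According to the labels and the methods, poly-A libraries were read from a single end in 1 lane, aligned to mm10 with STAR 2.3.1z4 and counted per gene with featureCounts; the deposited names add that only primary alignments were kept and duplicates removed. Removing duplicates of single-end reads can lower the counts of abundant genes more than others. The deposited signal is a mean for each genotype: the authors divided reads by DESeq size factors, separately in each table, and then averaged the triplicate. The authors' columns of fold changes and p-values were not used. Columns of per-sample values left out numbered 0.

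Each such mean adds up whole reads, each library's with its own fixed weight. From the deposited digits, whole reads were recovered for 100.0% of genes with reads in each group, with exactly 1 combination each, and with shifted steps 0 of 258 to 301 genes gave one. Recovered libraries carry no replicate number. Normalised reads were analysed on log2(value + 1) with limma 3.58.1 (R 4.3.3) with a mean-variance trend, keeping genes whose mean reached 10 in WT or mKO, with Benjamini-Hochberg adjustment over all genes tested and a threshold of 0.05. The pseudocount shrinks the folds of scarce genes. Exact permutation tests of 3 against 3 cannot reach that threshold and were not used. The recovery of reads and the limma fits without removal of trends were tested on simulated data. Alternatives were a pseudocount of 0.5, no filter or a mean of at least 50, other scalings, a threshold of p under 0.05 with a fold of at least 1.5, removal of each library's lowess trend (span 0.3) with GC content or with GC content and reads per base, and leaving out each library.

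Positions, exon lengths and GC content were read from GENCODE M21 (GRCm38, the same assembly as mm10), and promoters from RefSeq GRCm38.p6. Protein sequences were not used here. Members and lists were chosen with earlier results of these data known. Named genes are the members, the PRC2 partners and demethylases, called genes of the other lists (up to 6), the 5 genes most like Ezh2 and the overlapping neighbours. Python 3.11.15, numpy 2.4.6, pandas 2.3.3, scipy 1.17.1, numba 0.67.0 and matplotlib 3.10.9 were used.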

Additional observations from a re-analysis of the deposited data

How the results depend on the processing

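The rise of Mtf2 was called in both fractions under another pseudocount, another filter and other scalings, and its log2 change stayed above 0 under every alternative (0.38 to 0.82 in non-RGCs, limma adjusted p from 0.0167 to 0.161; 0.23 to 0.88 in RGCs, limma adjusted p from 5.36e-05 to 0.0798). Jarid2 in non-RGCs ranged from -0.70 to -0.37. Members called higher in non-RGCs numbered 0 with the GC trend or both trends removed, and from 0 to 1 with a library left out, as did members called lower. In RGCs the members called higher numbered 3 under total-read or upper-quartile scaling, where Suz12 (0.35, 0.42) and Aebp2 (0.26, 0.34) joined. They numbered 0 with the GC trend removed, and from 1 to 5 with a library left out. Those called lower numbered 1 without a filter or with both trends removed, 0 under both scalings, and from 0 to 2 with a library left out. Of all genes in RGCs, 3857 of 16125 were called higher by total reads and 4662 of 16153 by upper quartile. The 5 members called higher came without WT library C, where 3730 of 16125 genes were called higher. In that fit 9242 genes had an unadjusted limma p under 0.05 in either direction.

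Scaling by total reads or by the upper quartile moved the median gene to 0.15 and 0.14 in non-RGCs and to 0.12 and 0.20 in RGCs. The share of calls that were higher went from 39.4% to 74.8% and 77.0% in non-RGCs, and from 43.5% to 63.3% and 73.5% in RGCs. Genes called higher and lower in non-RGCs (641 and 985) became 1348 and 454 by total reads, 1114 and 332 by upper quartile, 165 and 172 after removal of the GC trend, 105 and 139 after removal of both trends, and 1362 higher at an unadjusted p under 0.05 with a fold of at least 1.5. In RGCs (2622 and 3405), 2238 were lower by total reads, 4662 higher and 1677 lower by upper quartile, 717 and 1769 after the GC trend was removed, 400 and 773 after both were, and 1614 and 1001 by p and fold. For the difference between fractions (16 higher, 0 lower), 27 were higher by total reads, 8 with both trends removed, and 1 was lower without a filter. Leaving out a library gave 48 to 724 higher and 93 to 1130 lower in non-RGCs, where both lowest counts came without mKO library B, 1427 to 3730 and 2309 to 4454 in RGCs, and 7 to 51 and 0 to 210 for the difference.

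Changes of sign were all of values that did not pass the test. By total reads and by upper quartile, Ezh1 (0.10, 0.095), Suz12 (0.10, 0.10) and Aebp2 (0.15, 0.14) in non-RGCs and Jarid2 (0.0034, 0.079) in RGCs turned positive. With the GC trend removed, Ezh2 in non-RGCs stood at -0.017, and Ezh2 (-0.14), Eed (-0.13), Suz12 (-0.16) and Aebp2 (-0.041) in RGCs, and after removal of both Ezh2 (-0.051), Eed (-0.10) and Aebp2 (-0.021) in RGCs. The difference between fractions turned for Mtf2 (0.010 by total reads, 0.15 and 0.16 with the GC trend or both removed) and Phf19 (0.033 by total reads, 0.025 with both removed). With a library left out, sign changes fell in the ranges -0.15 to 0.023 (Ezh1), -0.16 to 0.075 (Suz12) and -0.089 to 0.059 (Aebp2) in non-RGCs, -0.057 to 0.23 (Eed) and -0.031 to 0.13 (Ezh1) in RGCs, and -0.12 to 0.14 (Ezh2), -0.069 to 0.22 (Eed), -0.087 to 0.20 (Rbbp4), -0.082 to 0.14 (Rbbp7), -0.17 to 0.051 (Mtf2) and -0.23 to 0.12 (Phf19) for the difference. The cause was not tested. No paired analysis was possible because the recovered libraries carry no replicate number.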
